A study of Homo sapiens with 12 samples.

Results

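YAP-TEAD target genes were followed in HK-2 cells, a human renal epithelial line labelled as immortalized proximal tubule, after treatment with a compound named Nnm. The set holds 10 genes: CCN1, CCN2, THBS1, ANKRD1, AMOTL2, AJUBA, LATS2, AXL, and the regulators YAP1 and TEAD1 themselves. A gene was read from the Affymetrix probe sets whose annotation names it alone, and the one brightest on average across the 12 arrays stood for the gene. Together 28 probe sets named a member alone, of which 21 passed the filter on low values (log2 above 4 on at least 3 arrays). In all, 9 of the 10 genes were tested, among 10966 genes and 22829 probe sets tested on the array. CCN1 and CCN2 are the current symbols of CYR61 and CTGF.

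The study comes from a project on gene signatures of kidney toxicity, and this series asks how a high dose of Nnm changes transcripts over time. The 4 groups were HK-2 cells given a high dose of Nnm for 24 h, control cells given the vehicle for 24 h, cells given the high dose for 48 h, and their vehicle controls at 48 h. All groups were of the same line, seeded 24 h before treatment, treated near confluence and kept in a defined medium with added EGF, steroid, insulin, transferrin and selenium. Each group had 3 arrays, called biological replicates in the labels, which do not say further how the cultures were kept apart, so the p-values measure the spread between these samples. The compound name stays as the labels give it, and its dose and vehicle are not given in the sources used here.

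The Hippo pathway is a kinase cascade in which MST kinases activate LATS kinases, and LATS kinases phosphorylate the coactivator YAP, which then stays in the cytoplasm. Unphosphorylated YAP enters the nucleus, where it binds TEAD transcription factors on DNA and turns on genes for matricellular proteins, growth signals and feedback inhibitors of the pathway. In tubular epithelium the pathway is known to respond to cell density, to tension in the actin cytoskeleton and to injury. The activity of YAP lies in its phosphorylation and location, which arrays of RNA do not measure.

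The promoters of CCN2, THBS1 and ANKRD1 are shown because they carry the TEAD motif of the best-known targets in this set. They are the 250 bases before the RefSeq transcription start in GRCh38.p14, read 5′ to 3′ on the gene's strand, and capitals mark GGAATG, the core TEAD motif, searched on both strands (CATTCC on the other). CCN2 lies at chr6:131951373-131951622 on the minus strand, THBS1 at chr15:39580829-39581078 on the plus strand and ANKRD1 at chr10:90921088-90921337 on the minus strand.
CCN2: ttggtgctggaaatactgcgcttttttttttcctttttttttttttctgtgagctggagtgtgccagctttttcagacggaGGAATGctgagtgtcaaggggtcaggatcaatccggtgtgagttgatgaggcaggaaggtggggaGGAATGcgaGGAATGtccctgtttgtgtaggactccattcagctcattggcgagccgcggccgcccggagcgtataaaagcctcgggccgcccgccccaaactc
THBS1: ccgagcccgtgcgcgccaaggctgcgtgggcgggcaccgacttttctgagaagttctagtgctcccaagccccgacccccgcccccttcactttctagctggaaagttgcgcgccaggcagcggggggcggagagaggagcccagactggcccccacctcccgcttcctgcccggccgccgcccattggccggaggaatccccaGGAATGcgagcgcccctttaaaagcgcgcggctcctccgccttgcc
ANKRD1: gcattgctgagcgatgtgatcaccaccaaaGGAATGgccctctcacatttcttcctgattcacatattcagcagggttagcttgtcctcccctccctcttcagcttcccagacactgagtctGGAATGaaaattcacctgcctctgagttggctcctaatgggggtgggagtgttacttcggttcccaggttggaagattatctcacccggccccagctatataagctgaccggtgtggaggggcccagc
CCN2 had 3 matches, at 169, 104 and 95 bases before the start. Such a number was found in 0.0826% of 35116 RefSeq promoters of the same length. ANKRD1 had 2, at 220 and 128 bases before the start, against 0.94% of all promoters with 2 or more, and THBS1 had 1, at 46 bases. RefSeq promoters were matched for 8 of the 10 genes, all but CCN1 and TEAD1, 11 promoters in all. At least 1 match was found in 7 of the 11 promoters, against 11.9% of all promoters. These were 1 promoter each of CCN2, THBS1, ANKRD1, AMOTL2, AJUBA, AXL and YAP1, and the LATS2 promoter had none. The genes were listed as YAP-TEAD targets, so this comparison is no test of them. The AP-1 motif TGANTCA, searched on both strands and without overlap with the capitals, was found once, in ANKRD1, against 6.57% of all promoters. The CArG box of serum response factor was found in none of the 11, against 1.16%. A match is a string of letters and shows no binding.

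Some facts of the whole data set bear on every value. Array medians lay between 2.91 and 2.98 on the log2 scale, and each array had 22023 to 22228 probe sets over log2 4. Nnm replicate 2 stood apart from the other Nnm arrays: its mean correlation was 0.974 with the controls of its time at 24 h and 0.977 at 48 h, against 0.938 and 0.947 with the other Nnm arrays. Nnm replicates 1 and 3 correlated at 0.922 to 0.934 with controls and at 0.964 to 0.970 with Nnm arrays. All 6 genes of the epithelial list (KRT8, KRT18, KRT19, EPCAM, CDH1, CDH2) were above log2 4 on all control arrays. CDH2 encodes N-cadherin, which is not particular to epithelium. Of 11 proximal tubule markers, CDH6 and PAX8 were, while LRP2, CUBN, AQP1, SLC34A1, SLC5A2, ANPEP, MME, GGT1 and VIL1 were not, so that most defining genes of that segment were not seen. Markers of other cells were above that level on all controls for 3 of 8 fibroblast genes, 2 of 4 podocyte genes, 0 of 6 endothelial genes, 0 of 4 distal nephron genes and 0 of 4 leukocyte genes. Of all these markers, CDH2 at 48 h was the one called (adjusted p = 0.0483). Its control mean was 9.60, and it ran from 9.38 to 10.68 over the 12 arrays. Their part in the results below was not tested.

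At 24 h the matricellular genes CCN1 and THBS1 and the feedback gene AMOTL2 fell with Nnm, while CCN2, which shares their regulator, was not called. At 48 h THBS1 fell and TEAD1 rose. Over both times together 4 genes fell (CCN1, THBS1, AMOTL2, AXL) and 2 rose (YAP1, TEAD1). In a bulk sample less RNA per cell cannot be told apart from fewer cells of one kind.

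In counts, at 24 h 3 of the 9 tested genes fell and 0 rose at an adjusted p under 0.05, against 16.5% of all tested genes called, 8.21% lower and 8.31% higher. At 48 h 1 fell and 1 rose, against 10.8% called, 4.27% lower and 6.55% higher. For the mean of both times, which uses the same arrays again, 6 were called, against 37.5% of all tested genes, 17.8% lower and 19.7% higher. The median change over the 9 genes was -0.36 at 24 h and -0.27 at 48 h on the log2 scale, beside -0.00 and 0.02 over all tested genes. Without both Nnm arrays numbered 2 the counts were 5 at 24 h, 4 at 48 h and 7 for the mean, and the background was 49.9%, 44.8% and 60.9%. When the replicate number entered the fit as a block, so that same-numbered arrays were compared, they were 3, 3 and 7, against 31.5%, 22.9% and 49%. The 24 h calls also rested on single arrays. The count was 4 without Nnm 24 h replicate 2, with LATS2 added, where 41.2% of all genes were called. Without Nnm 24 h replicate 1 or replicate 3, or control 24 h replicate 1, 1 member was called, without control 24 h replicate 3 it was 0, and the share of all genes called in these fits was 0.392%, 0.83%, 1.99% and 0.328%. At 48 h the count was 1 without Nnm 24 h replicate 1 (9.02% of all genes), and 0 without Nnm 24 h replicate 3, Nnm 48 h replicate 1 or 3, or any control array of either time, where 0.985% to 8.3% of all genes were called. It was 3 without Nnm 24 h replicate 2 or Nnm 48 h replicate 2, where the share was 21.7% and 28.2%.

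**Figure D1:**
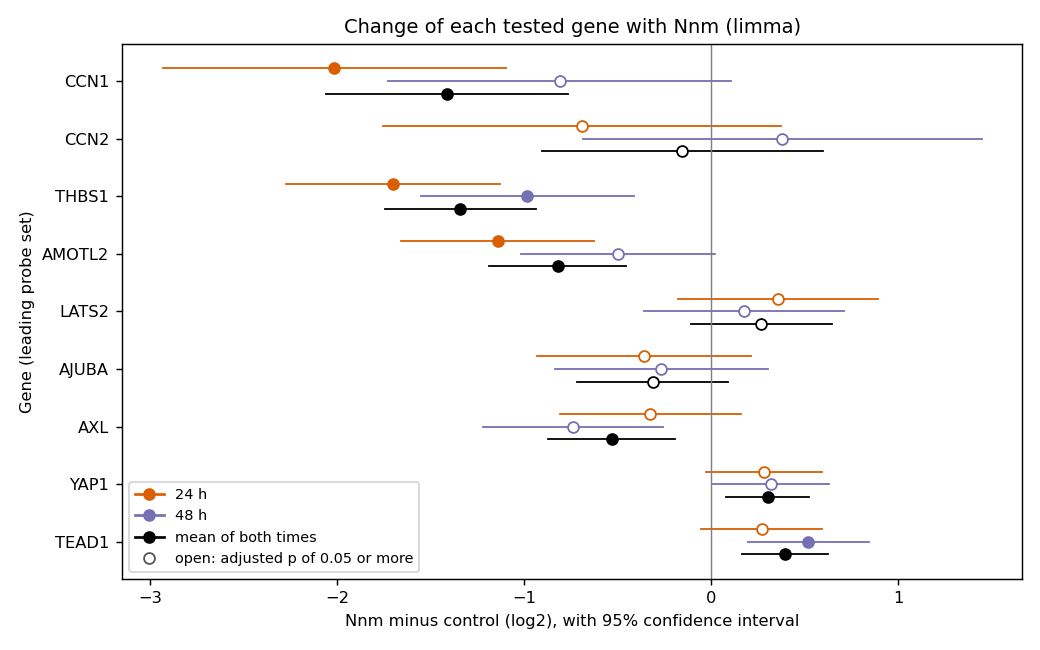
Change of the 9 tested genes with Nnm (Nnm minus control, log2) from limma at 24 h, 48 h and as the mean of both times, with 95% confidence intervals; filled points have an adjusted p under 0.05. CCN1, THBS1 and AMOTL2 lie on the lower side at each time, YAP1 and TEAD1 on the higher side, and CCN2 lies on opposite sides of 0 at 24 h and 48 h.

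Separation of the arrays was counted too. At 24 h all 3 Nnm arrays lay below all 3 controls for CCN1, THBS1 and AMOTL2 and above them for YAP1. Over all tested genes the share was 20% below and 19.6% above. At 48 h the arrays did not overlap for THBS1, AMOTL2 and AXL, which lay below, and TEAD1, which lay above, against 16.9% and 20.7% of all genes.

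CCN1 encodes a secreted matricellular protein that binds integrins and is one of the most direct YAP targets. At 24 h its log2 level was 12.29, 11.59 and 12.47 in control replicates 1 to 3, and 9.51, 10.88 and 9.91 in the Nnm replicates. All Nnm arrays were lower than all controls, and Nnm replicate 2 was the highest of them. CCN1 fell by 2.02 on the log2 scale (SE 0.41, adjusted p = 0.0184), or 4.04-fold, from 12.12 ± 0.46 to 10.10 ± 0.70 (SD, n = 3). The call was lost without Nnm 24 h replicate 1 (adjusted p = 0.0843) or 3 (0.0734), or control 24 h replicate 1 (0.0653) or 3 (0.0859). The 48 h controls read 11.49, 11.35 and 12.14 and the Nnm arrays 10.49, 10.50 and 11.56. Here the groups overlapped, since Nnm replicate 3 lay above control replicates 1 and 2. The change was -0.81 (SE 0.41, adjusted p = 0.212), from 11.66 ± 0.42 to 10.85 ± 0.62, and did not pass the threshold.

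Every same-numbered pair of CCN1 arrays had the Nnm array lower. The difference within a pair was -2.77, -0.71 and -2.56 at 24 h and between -1.001 and -0.58 at 48 h. Over both times CCN1 fell by 1.41 (SE 0.29, adjusted p = 0.00649), and this call held without any single array. The effect at 48 h minus that at 24 h was 1.20, with a 95% interval from -0.09 to 2.50 (adjusted p = 0.780), so a difference between the times was not shown. From the highest mean to the lowest the groups ran control 24 h, control 48 h, Nnm 48 h and Nnm 24 h, and no neighbours in that order differed by the test (adjusted p = 0.838, 0.212 and 0.445). The other CCN1 probe set, 210764_s_at, fell by 2.16 at 24 h (adjusted p = 0.0237) and was -0.96 at 48 h (adjusted p = 0.207). Its 24 h call was lost without Nnm or control replicate 1 or 3 of that time, at adjusted p of 0.0773 to 0.103.

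CCN2, connective tissue growth factor, is a relative of CCN1 and the classical profibrotic YAP target, with the 3 motif matches printed above. At 24 h its log2 level was 10.15, 9.45 and 10.00 in the controls and 8.31, 9.82 and 9.40 in the Nnm arrays. The groups overlapped: Nnm replicate 1 was far below the controls, replicate 3 just below them and replicate 2 within their range. The change was -0.69 (SE 0.48, 95% interval -1.75 to 0.38, adjusted p = 0.327), from 9.87 ± 0.37 to 9.18 ± 0.78. It ran from -1.01 without Nnm 24 h replicate 2 to -0.26 without Nnm 24 h replicate 1 and was not called in any of the 12 fits that left out 1 array. The 48 h controls read 9.67, 9.33 and 9.85 and the Nnm arrays 9.69, 9.22 and 11.07. Nnm replicate 3 was the highest of all 12 arrays and the other Nnm arrays lay within or just under the control range. The change was 0.38 (SE 0.48, 95% interval -0.68 to 1.45, adjusted p = 0.626) and was -0.16 without that replicate. The interval of the mean over both times, -0.91 to 0.60, held 0.

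THBS1, thrombospondin 1, is a matrix glycoprotein that activates latent TGF-beta. At 24 h its log2 level was 8.60, 8.11 and 8.46 in the controls and 7.08, 6.38 and 6.59 in the Nnm arrays. The groups were apart, and Nnm replicate 2, near the controls over all probe sets, was here the lowest. THBS1 fell by 1.70 (SE 0.26, adjusted p = 0.0101), or 3.26-fold, from 8.39 ± 0.25 to 6.68 ± 0.36. The call was lost in 1 of 12 fits, without control 24 h replicate 3 (adjusted p = 0.0544). Later, at 48 h, the controls read 7.30, 6.94 and 6.97 and the Nnm arrays 5.80, 6.62 and 5.84, again apart, with replicate 2 the closest to the controls. THBS1 fell by 0.98 (SE 0.26, adjusted p = 0.0403), or 1.98-fold, from 7.07 ± 0.20 to 6.09 ± 0.46. That call remained in 3 of 12 fits, those without Nnm 24 h replicate 1 or 2 or Nnm 48 h replicate 2. In the fits without any other single array the adjusted p was 0.0516 to 0.152. As the mean of both times THBS1 fell by 1.34 (SE 0.18, adjusted p = 0.00147), and this call held without any single array.

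THBS1 was also lower in the later control cells. All 3 controls at 48 h lay below all 3 at 24 h, against 14.3% of all tested genes, and the difference was -1.32 (SE 0.26). Its unadjusted p was 0.000411 and its adjusted p 0.248, so it did not pass; in this comparison 0 genes of the whole table were called by limma, and 970 had an unadjusted p under 0.05. The group means ran from control 24 h over control 48 h and Nnm 24 h to Nnm 48 h. The Nnm cells changed by -0.60 from 24 h to 48 h (adjusted p = 0.347).

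The 2 other tested probe sets of THBS1 gave larger changes, and 4 more lay under the filter level and were not tested. At 24 h probe set 201109_s_at read 8.67, 8.04 and 8.65 in controls and 5.36, 4.69 and 5.78 in Nnm cells, and it fell by 3.18 (adjusted p = 0.0132). At 48 h it read 7.52, 6.27 and 6.19 in controls and 3.22, 5.23 and 3.15 in Nnm cells, at least 4.75-fold lower (adjusted p = 0.0185), a bound for which the 2 Nnm arrays under log2 4 were set to that level. Probe set 201110_s_at fell by 2.54 at 24 h (adjusted p = 0.0312) and was at least 6.20-fold lower at 48 h (adjusted p = 0.0225), by the same bound with 2 Nnm arrays under log2 4. On both, Nnm 48 h replicate 2 stayed above log2 5 while replicates 1 and 3 were under log2 4. The calls of these probe sets were lost in 3 to 5 of 12 fits, each time without arrays of the time compared. The lost calls had adjusted p of 0.0523 to 0.128 at 24 h (Nnm replicate 1 and control replicates 1 and 3 for both, Nnm replicate 3 and control replicate 2 for 201110_s_at) and 0.0509 to 0.0914 at 48 h (Nnm and control replicates 1 and 3 for both, control replicate 2 for 201110_s_at).

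ANKRD1, a nuclear ankyrin-repeat protein strongly induced by YAP in many cells, was not seen in HK-2 cells at any time. Its log2 value was 2.33 to 2.38 on all 12 arrays, under the filter level, so it was not tested. Nothing can be said of a change there, although its promoter carries 2 of the matches printed above.

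AMOTL2, angiomotin-like 2, binds YAP at cell junctions and is both its target and its inhibitor. At 24 h its log2 level was 10.93, 10.61 and 10.96 in controls and 9.27, 10.17 and 9.62 in Nnm arrays. The groups were apart, with Nnm replicate 2 nearest the controls. AMOTL2 fell by 1.14 (SE 0.23, adjusted p = 0.0182), or 2.21-fold, from 10.83 ± 0.19 to 9.69 ± 0.45. The call was lost without Nnm 24 h replicate 1 (adjusted p = 0.0790) or 3 (0.0718), or control 24 h replicate 1 (0.0649) or 3 (0.0834), the same arrays as for CCN1. Control arrays at 48 h read 10.92, 10.85 and 11.11 and the Nnm arrays 10.23, 10.33 and 10.81. The groups were still apart, but the change of -0.50 (SE 0.23, adjusted p = 0.176) did not pass. Over both times AMOTL2 fell by 0.82 (SE 0.17, adjusted p = 0.00583), and this call held without any single array. All 3 Nnm arrays at 48 h lay above all 3 at 24 h, against 5.73% of all genes above and 6.23% below, a difference of 0.77 (unadjusted p = 0.00773, adjusted p = 0.250). From 24 h to 48 h in Nnm cells 0 of the 9 members were called by limma and 3 had an unadjusted p under 0.05. Of all 10966 tested genes 0 were called there and 1622 had an unadjusted p under 0.05. For the difference between the Nnm effects both member counts were 0, against 0 and 724 of all genes. For time in control cells the member counts were 0 and 1, against 0 and 970.

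**Figure D2:**
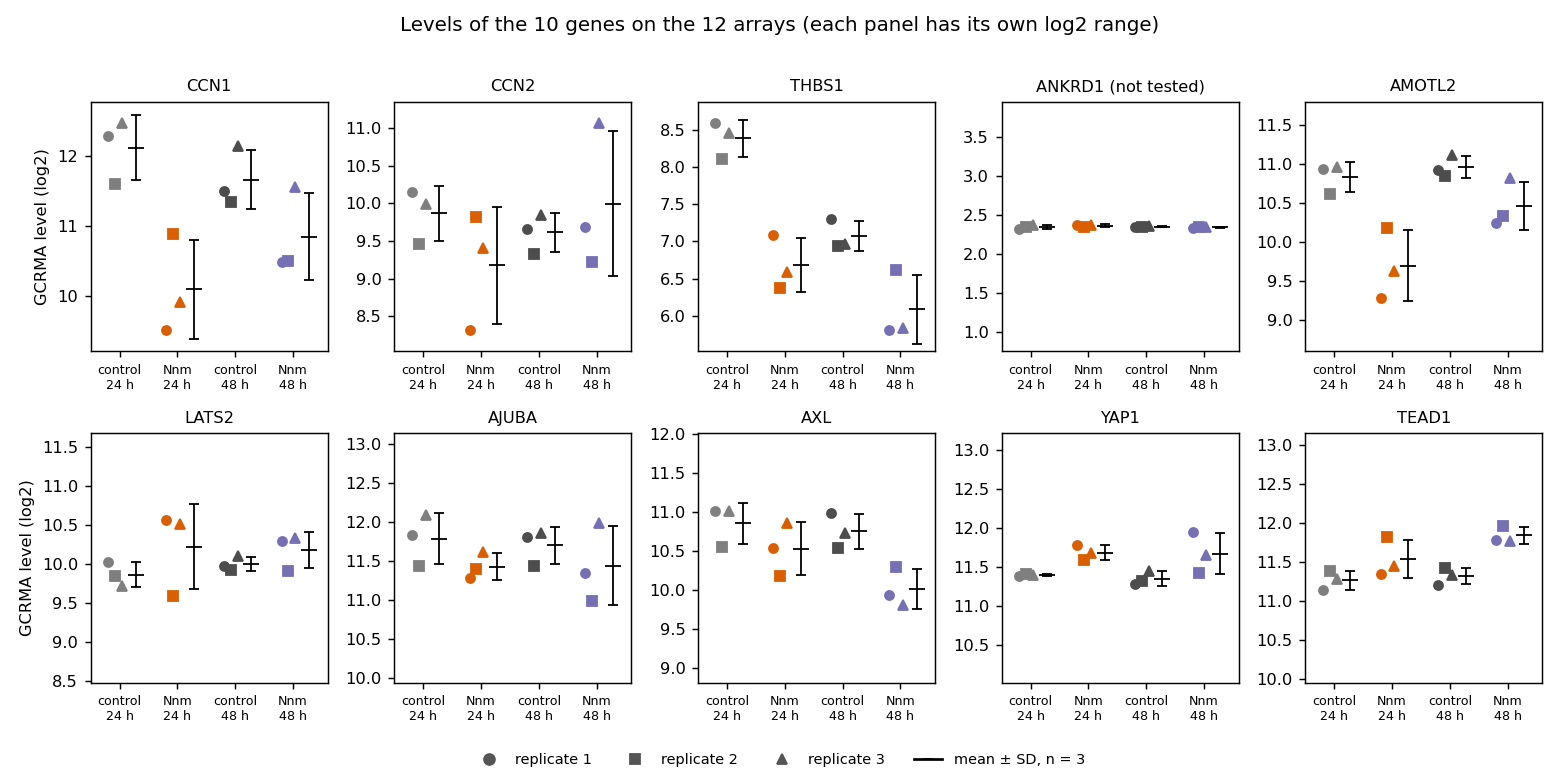
GCRMA log2 level of the 10 genes on the 12 arrays, by group (control or Nnm, 24 h or 48 h); symbols are replicates 1 to 3, bars the mean ± SD of 3 arrays, and each panel has its own log2 range. CCN1, THBS1 and AMOTL2 show Nnm arrays below their controls at 24 h, and ANKRD1 stays at 2.33 to 2.38. CCN2 shows 1 Nnm array far below and 1 just below its controls at 24 h, and 1 high one at 48 h.

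LATS2 is the kinase that phosphorylates YAP, and its gene is itself induced by YAP as negative feedback. Its log2 level at 24 h was 10.02, 9.85 and 9.71 in controls and 10.56, 9.59 and 10.52 in Nnm arrays. Nnm replicates 1 and 3 lay above the controls and replicate 2 below them. The change was 0.36 (SE 0.24, adjusted p = 0.308). It was 0.68 and called without Nnm 24 h replicate 2 (adjusted p = 0.00866) and without both Nnm arrays numbered 2 (0.00178). Controls at 48 h read 9.97, 9.92 and 10.10 and the Nnm arrays 10.29, 9.91 and 10.32, a change of 0.18 (SE 0.24, adjusted p = 0.655), with the same replicate the lowest. The other 2 tested LATS2 probe sets were not called at either time: 223380_s_at changed by 0.39 at 24 h and -0.026 at 48 h, and 223379_s_at by 0.026 and 0.11.

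AJUBA is a LIM-domain protein of adherens junctions that binds and holds back LATS kinases. Its leading probe set read 11.84, 11.44 and 12.10 in controls and 11.28, 11.39 and 11.61 in Nnm arrays at 24 h. It read 11.81, 11.43 and 11.86 in controls and 11.35, 10.98 and 11.98 in Nnm arrays at 48 h. The groups overlapped at both times, and the changes of -0.36 (adjusted p = 0.340) and -0.27 (adjusted p = 0.515) did not pass. With the replicate block AJUBA was called lower over both times (-0.31, adjusted p = 0.0495 against 0.199 without it).

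A further AJUBA probe set, 225807_at, moved much more. At 24 h it read 7.96, 7.88 and 8.28 in controls and 4.34, 6.67 and 4.37 in Nnm arrays. Nnm replicates 1 and 3 were close to the filter level and replicate 2 lay between them and the controls. It fell by 2.92 (adjusted p = 0.0174), or 7.54-fold, and the call was lost without Nnm 24 h replicate 1 (adjusted p = 0.0816) or 3 (0.0727), or control 24 h replicate 1 (0.0584) or 3 (0.0809). Its 48 h controls read 8.09, 7.86 and 7.91 and the Nnm arrays 5.30, 7.04 and 6.42, apart again, but the change of -1.69 was not called (adjusted p = 0.0868, and 0.0155 or 0.0357 without Nnm 24 h or 48 h replicate 2). The third, 1553764_a_at, changed by -0.53 at 24 h, which was called with the replicate block (adjusted p = 0.0371 against 0.215 without it), and by -0.18 at 48 h (adjusted p = 0.714). Which transcripts each of these probe sets reads was not determined, and the probe sets of AJUBA disagree on the size of the change.

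**Figure D3:**
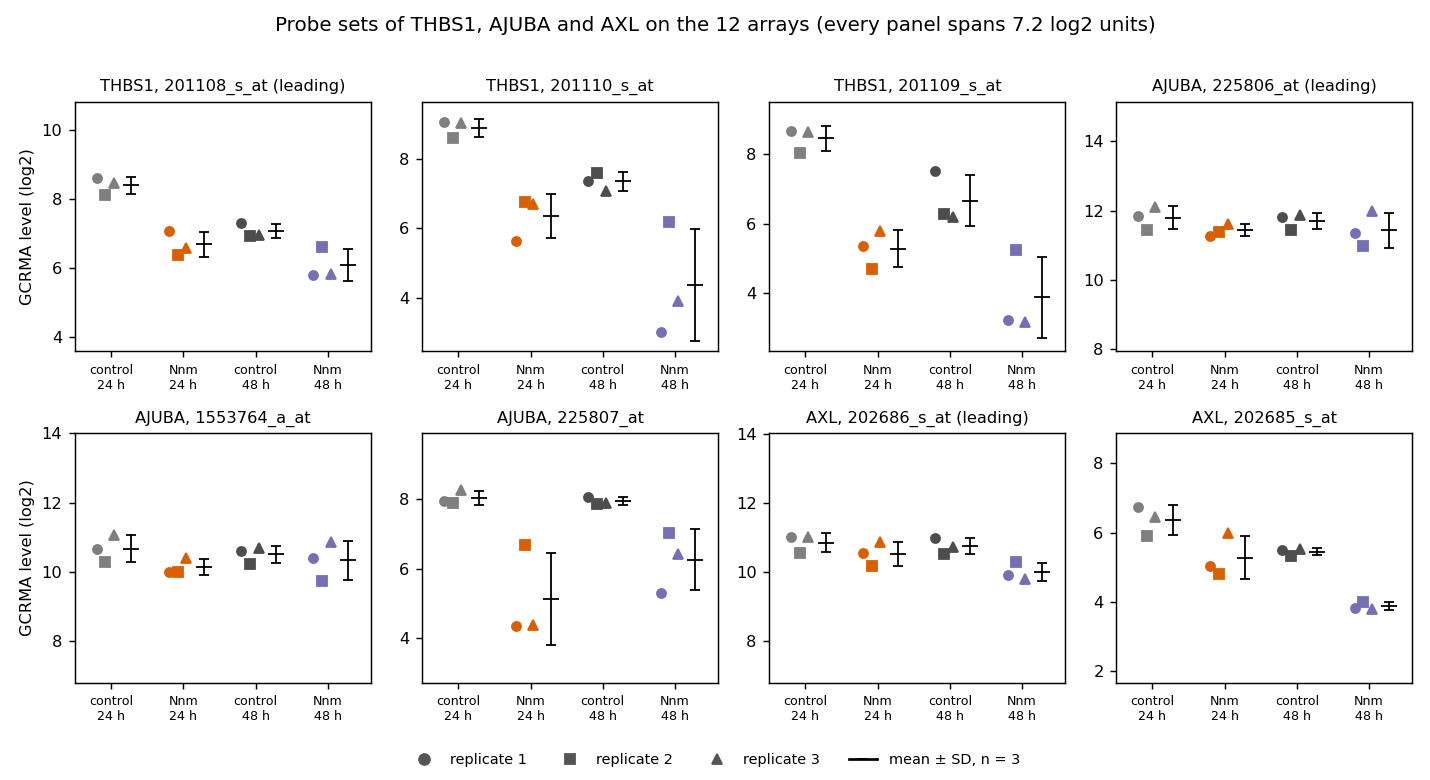
GCRMA log2 level of the tested probe sets of THBS1, AJUBA and AXL on the 12 arrays, by group; symbols are replicates 1 to 3, bars the mean ± SD of 3 arrays, and every panel spans the same number of log2 units. The leading probe set of each gene shows a smaller drop than a further one, 201109_s_at or 201110_s_at for THBS1, 225807_at for AJUBA and 202685_s_at for AXL.

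AXL is a receptor tyrosine kinase for GAS6 that supports survival and migration. At 24 h its log2 level was 11.01, 10.54 and 11.01 in controls and 10.54, 10.18 and 10.86 in Nnm arrays, with overlap and a change of -0.33 (SE 0.22, adjusted p = 0.305). Control cells at 48 h read 10.98, 10.54 and 10.73 and the Nnm arrays 9.93, 10.30 and 9.81, without overlap. The change of -0.74 (SE 0.22) had an adjusted p of 0.0555, and 0.0399 with the replicate block. It was called without Nnm 24 h replicate 2 (adjusted p = 0.0289) and without Nnm 48 h replicate 2 (0.0205). Over both times AXL fell by 0.53 (SE 0.15, adjusted p = 0.0235), called in 7 of 12 fits that each left out 1 array. It was lost without Nnm 48 h replicate 1 or 3, control 24 h replicate 1 or 3, or control 48 h replicate 1, at adjusted p of 0.0535 to 0.0580.

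The weaker AXL probe set, 202685_s_at, was called at both times. At 24 h it read 6.74, 5.89 and 6.44 in controls and 5.05, 4.80 and 5.98 in Nnm arrays, and it fell by 1.08 (adjusted p = 0.0370), with Nnm replicate 3 just inside the control range. At 48 h it read 5.49, 5.33 and 5.53 in controls and 3.83, 3.99 and 3.78 in Nnm arrays, at least 2.73-fold lower (adjusted p = 0.0150), a bound against the filter level. The 24 h call held in 5 of 12 fits and the 48 h call in 8. The 48 h call was lost without Nnm or control replicate 1 or 3 of that time, at adjusted p of 0.0559 to 0.0669. The 24 h call was lost without Nnm 24 h replicate 1, control 24 h replicate 1 or 3, Nnm 48 h replicate 3 or any control of 48 h, at 0.0515 to 0.141.

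The member regulators YAP1 and TEAD1 moved the other way, unlike WWTR1 and TEAD2, described below, which fell at 24 h. YAP1, the coactivator gene, read 11.39, 11.42 and 11.39 in controls and 11.78, 11.58 and 11.68 in Nnm arrays at 24 h, so the groups were apart. The change was 0.28 (SE 0.14, adjusted p = 0.175), from 11.40 ± 0.01 to 11.68 ± 0.10. At 48 h the controls read 11.28, 11.32 and 11.46 and the Nnm arrays 11.95, 11.42 and 11.65, where replicate 2 lay inside the control range. The change was 0.32 (SE 0.14, adjusted p = 0.153). Over both times YAP1 rose by 0.30 (SE 0.10, adjusted p = 0.0385), or 1.23-fold, and every same-numbered pair had the Nnm array higher, by 0.10 to 0.66. This call remained in 2 of 12 fits that left out 1 array, those without Nnm 24 h or 48 h replicate 2, and the others had adjusted p of 0.0529 to 0.0894. The other tested YAP1 probe sets were not called: 224895_at changed by 0.36 at 24 h and 0.35 at 48 h, and 213342_at by 0.59 and 0.45. Without Nnm 24 h replicate 2, 213342_at was called at 24 h (adjusted p = 0.0317), and without Nnm 48 h replicate 2 both were called at 48 h (0.0483 each). The leading probe set was also called at 48 h in that last fit (0.45, adjusted p = 0.0343), its 1 call at that time in 12 fits. Without both Nnm arrays numbered 2, YAP1 was called at 24 h (0.33, adjusted p = 0.0477) and at 48 h (0.45, adjusted p = 0.0158).

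TEAD1 is the DNA-binding partner that reads the motif shown above. At 24 h it read 11.13, 11.37 and 11.28 in controls and 11.34, 11.81 and 11.45 in Nnm arrays, with overlap and a change of 0.27 (SE 0.15, adjusted p = 0.210). At 48 h the controls read 11.20, 11.42 and 11.32 and the Nnm arrays 11.78, 11.96 and 11.77, all above the controls. TEAD1 rose by 0.52 (SE 0.15, adjusted p = 0.0493), or 1.43-fold, from 11.32 ± 0.11 to 11.84 ± 0.11. This value is at the threshold: the call remained in 1 of 12 fits, that without Nnm 24 h replicate 2, and the adjusted p was 0.0516 to 0.141 without any other single array. Over both times TEAD1 rose by 0.40 (SE 0.10, adjusted p = 0.0162) and was called in all 12 such fits. Replicate 2 was the highest array of its group in all 4 groups, and within same-numbered pairs the Nnm array was higher by 0.20, 0.44 and 0.17 at 24 h and by 0.57, 0.54 and 0.45 at 48 h. The other tested TEAD1 probe sets changed by 0.58 (214600_at) and 0.83 (1553322_s_at) at 48 h. They were called with the replicate block (adjusted p = 0.0164 and 0.0265) and not without it (0.0915 and 0.106), and 1553322_s_at was called without Nnm 48 h replicate 2 (0.00716).

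Members were also compared with one another and with other genes by the shape of their values over the 12 arrays. The measure was the root-mean-square difference in log2 between genes after each was centred on its own mean, where a low value means a like pattern. LATS2 and YAP1 were closest (0.223), then YAP1 and TEAD1 (0.247), while CCN1 and AMOTL2 were at 0.429 and CCN2 and THBS1, the farthest pair, at 1.12. Among 10957 tested genes that are not members, SWSAP1 (0.28), GYS1 (0.31) and DCTPP1 (0.386) were most like CCN1. B3GALT5 (0.296), KLHDC7A (0.323) and P2RY6 (0.327) were most like CCN2. FSD1 (0.372), NRK (0.378) and PDSS1 (0.383) were most like THBS1. The measure favours genes that change little, all values share the same arrays, and no test goes with it.

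Beyond the members, 14 of the other 16 genes of a 22-gene signature of YAP and TAZ targets were tested. At 24 h 2 fell and 0 rose (14.3% called, against 16.5% of all tested genes). At 48 h 3 rose and 2 fell (35.7% called, against 10.8%). The median changes were -0.25 and 0.03. FJX1, a secreted regulator of planar polarity, fell by 2.02 at 24 h (adjusted p = 0.00879) and by 1.30 at 48 h (adjusted p = 0.0225). TGFB2, a TGF-beta ligand, fell by 1.13 at 24 h (adjusted p = 0.0264). At 48 h the matrix protein gene CCDC80 rose by 2.47 (adjusted p = 0.0125), NT5E, the ecto-nucleotidase CD73, by 2.08 (adjusted p = 0.0311) and DOCK5, a Rac exchange factor, by 1.36 (adjusted p = 0.0230). CRIM1, which binds BMPs, fell by 0.76 (adjusted p = 0.0361). So the signature moved in both directions at 48 h. With the replicate block 5 were called at 24 h, against 31.5% of all genes, with CCDC80, NT5E and RBMS3 added. Leaving out 1 array gave 1 to 6 calls at 24 h and 0 to 6 at 48 h. In these fits, the same for each list below, 0.328% to 41.2% of all genes were called at 24 h and 0.985% to 28.2% at 48 h. FJX1 at 24 h held in all 12 fits. TGFB2 was lost without Nnm or control replicate 1 or 3 of 24 h (adjusted p = 0.0798 to 0.114), and FJX1 at 48 h without the same numbers of that time (0.0638 to 0.0939). CCDC80 was lost without Nnm 48 h replicate 1 or 3 or control 48 h replicate 1 (0.0518 to 0.0588), and DOCK5 without Nnm 48 h replicate 1 or 3 or any control of 48 h (0.0641 to 0.0945). NT5E was lost without those arrays or control 24 h replicate 1 (0.0503 to 0.125), and CRIM1 without those arrays or any control of 24 h (0.0514 to 0.137).

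**Figure D4:**
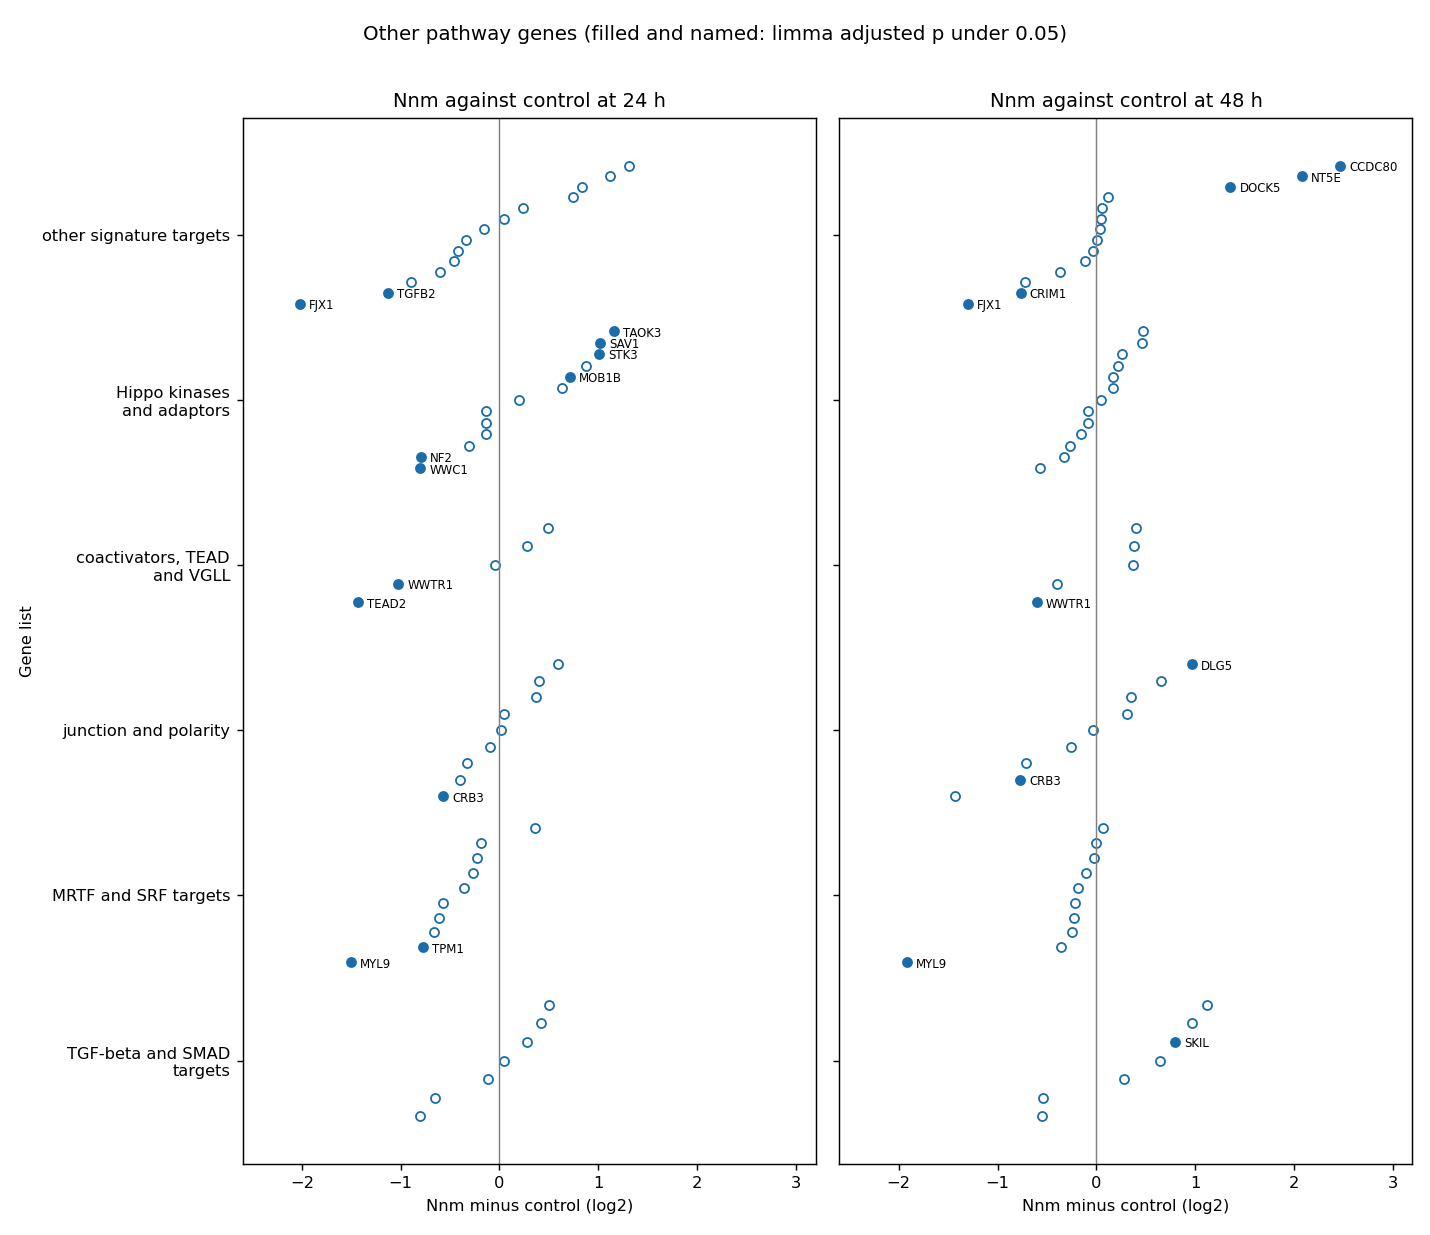
Change with Nnm (Nnm minus control, log2) of the tested genes of 6 further lists at 24 h (left) and 48 h (right); each point is a gene, filled and named where the limma adjusted p was under 0.05. Hippo kinases and adaptors have 4 named genes above 0 and 2 below at 24 h and none at 48 h, and the other signature targets spread to both sides at 48 h.

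Of the Hippo kinases, adaptors and upstream kinases, 13 of 14 were tested. At 24 h 4 rose and 2 fell (46.2% called, against 16.5% of all tested genes), and the median change was 0.20. TAOK3, which activates MST kinases, rose by 1.16 (adjusted p = 0.0125). SAV1, the scaffold of MST, rose by 1.02 (adjusted p = 0.0262), and STK3, which encodes MST2, by 1.01 (adjusted p = 0.0274). MOB1B, a LATS cofactor, rose by 0.71, and the upstream activators NF2 and WWC1 fell by 0.79 and 0.80; these are named although they lie outside the naming rule, after their values were seen. So the members of this list did not move one way. With the replicate block 8 were called at 24 h, against 31.5% of all genes, with LATS1 (0.88, adjusted p = 0.0363) and TAOK1 (0.63, adjusted p = 0.0380) added. At 48 h limma called 0 of 13, against 10.8% of all tested genes. An unadjusted p under 0.05 was held by 3 of them, against 3528 of all 10966. The smallest p was that of NF2 (-0.57, adjusted p = 0.0832). STK4 and NF2 were called with the replicate block, against 22.9% of all genes. Leaving out 1 array gave 0 to 8 calls at 24 h and 0 to 2 at 48 h. Without Nnm 24 h replicate 1 or 3 or control 24 h replicate 3 the 24 h calls of all 6 genes were lost, and without control 24 h replicate 1 those of all but TAOK3. STK3 and SAV1 were lost without control 24 h replicate 2 as well. The lost calls had adjusted p of 0.0524 to 0.118.

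Of the other coactivators, TEAD factors and VGLL cofactors, 5 of 8 were tested and 2 fell at 24 h (40% called, against 16.5% of all tested genes). WWTR1, which encodes TAZ, the relative of YAP, fell by 1.03 at 24 h (adjusted p = 0.0105) and by 0.60 at 48 h (adjusted p = 0.0410). At 48 h WWTR1 was the 1 gene called (20%, against 10.8% of all tested genes). TEAD2 fell by 1.43 at 24 h (adjusted p = 0.0262). These directions are opposite to those of YAP1 and TEAD1. The WWTR1 call at 24 h was lost without Nnm 24 h replicate 1 (adjusted p = 0.0570) or control 24 h replicate 3 (0.0595), and at 48 h it held in 4 of 12 fits, without Nnm 24 h replicate 1 or 2, control 24 h replicate 2 or Nnm 48 h replicate 2, with 0.0509 to 0.154 in the others. TEAD2 was lost without Nnm or control replicate 1 or 3 of 24 h, at adjusted p of 0.0855 to 0.104.

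Of the junction and polarity regulators, 9 of 13 were tested. Called were 1 at 24 h (11.1%, against 16.5% of all tested genes) and 2 at 48 h (22.2%, against 10.8%). CRB3, an apical polarity protein gene, fell by 0.57 at 24 h (adjusted p = 0.0366) and by 0.77 at 48 h (adjusted p = 0.0176), while DLG5, a scaffold of junctions, rose by 0.96 at 48 h (adjusted p = 0.0151). With the replicate block 2 were called at 24 h and 5 at 48 h, against 31.5% and 22.9% of all genes. Leaving out 1 array gave 0 to 2 and 0 to 5. CRB3 was lost at 24 h without Nnm 24 h replicate 1 or 3, any control of 24 h, or control 48 h replicate 2 or 3 (adjusted p = 0.0515 to 0.119), and at 48 h without Nnm 48 h replicate 1 or control 48 h replicate 1 or 3 (0.0599 to 0.0663). DLG5 was lost without Nnm or control replicate 1 or 3 of 48 h (0.0552 to 0.0693).

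Targets of MRTF and SRF, which respond to the actin cytoskeleton and overlap in biology with YAP targets, had 10 of 13 tested. At 24 h 2 were called, both lower (20%, against 16.5% of all tested genes in either direction). At 48 h 1 was called lower (10%, against 10.8% in either direction). The medians were -0.46 and -0.20. MYL9, a myosin light chain gene, fell by 1.50 at 24 h (adjusted p = 0.0231) and fell by 1.92 at 48 h (adjusted p = 0.0133), and TPM1, a tropomyosin gene, fell by 0.78 at 24 h (adjusted p = 0.0402). With the block 4 were called at 24 h, against 31.5% of all genes. Leaving out 1 array gave 0 to 4 at 24 h and 0 to 1 at 48 h. MYL9 was lost without Nnm or control replicate 1 or 3 of the time compared (adjusted p = 0.0584 to 0.0978 at 24 h and 0.0525 to 0.0614 at 48 h). TPM1 held without Nnm 24 h replicate 2 or Nnm 48 h replicate 1 or 2, with 0.0532 to 0.158 in the other fits. Of 8 TGF-beta and SMAD targets, 7 were tested. Limma called 0 at 24 h, against 16.5% of all tested genes. An unadjusted p under 0.05 was held by 3 of the 7, against 4212 of all 10966. The smallest p was that of BHLHE40, a transcriptional repressor gene (-0.66, adjusted p = 0.0652). At 48 h SKIL, which encodes a SMAD repressor, rose by 0.79 (adjusted p = 0.0377), the 1 gene called (14.3%, against 10.8% of all tested genes). With the block the counts were 3 at 24 h and 4 at 48 h, against 31.5% and 22.9% of all genes. Leaving out 1 array gave 0 to 1 and 0 to 4. SKIL held without Nnm 24 h replicate 2, control 24 h replicate 3 or Nnm 48 h replicate 2, with adjusted p of 0.0501 to 0.142 in the other fits.

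RNA quality was read from the control probe sets at both ends of ACTB and GAPDH. The 3′ minus 5′ difference was 0.80 to 1.19 in controls and 0.89 to 1.18 in Nnm arrays for ACTB, and -0.14 to -0.06 and -0.17 to -0.08 for GAPDH. The ranges overlapped, with replicate 2 the highest of each group for ACTB. Within same-numbered pairs the ACTB difference was higher in the Nnm array in 5 of 6 pairs, by 0.12, 0.026 and 0.090 at 24 h and by 0.13 and 0.10 in pairs 1 and 3 at 48 h, with -0.0040 in pair 2. For GAPDH it was higher in 1 of 6 pairs, in a range from -0.11 to 0.034. Levels of each marker list were summed on the linear scale and the log2 of the sum was taken, so the brightest genes weigh most. For some lists this value separated the groups. For podocyte markers the Nnm arrays lay above the controls at both times: 7.09 to 7.40 in controls and 7.48 to 7.88 in Nnm arrays at 24 h, and 7.11 to 7.41 and 7.54 to 7.88 at 48 h, from PODXL and SYNPO, with NPHS1 and WT1 under the filter level on controls. The value of the epithelial list lay lower in Nnm cells at 24 h (14.35 to 14.43, against 14.61 to 14.88 in controls) and overlapped at 48 h. At 48 h the proximal tubule list lay higher in Nnm cells (12.94 to 14.08, against 12.79 to 12.93). That sum comes mostly from CDH6 (control mean 12.59), which limma did not call at 48 h (adjusted p = 0.704), then from PAX8 (10.83). Its other genes were under log2 4 on all arrays. The endothelial list also lay higher at 48 h (5.87 to 5.96, against 5.57 to 5.79), and no gene of it was above log2 4 on all controls. The part of these shifts in the members' changes was not tested.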

How the data were processed

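Total RNA of 12 HK-2 samples was hybridised to 1-colour Affymetrix arrays, 3 per group. The deposited table holds log2 expression values made by the authors by GCRMA (per the submitters' processing notes, which give no version). GCRMA corrects background from probe sequence and normalizes the arrays together, so a shift shared by most genes would not be seen. The set of arrays normalized together is not stated. No detection calls were used.

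Of 54675 probe sets, 62 controls were left out, and probe sets above log2 4 on at least 3 of 12 arrays were tested. The annotation named 1 gene for 41097 probe sets, several for 1801 and none for 11777. All 12 arrays entered 1 model of 4 groups in limma 3.58.1 under R 4.3.3 (lmFit, contrasts.fit, eBayes, 8 residual degrees of freedom). The p-values were adjusted by Benjamini-Hochberg over all tested probe sets, and a gene was called under 0.05. Where arrays of the lower group lay under log2 4, they were set to that level and the fold is a bound. The code of the fit was run on simulated data with independent noise of a single spread. That run did not include the likeness of same-numbered arrays or an outlying array.

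The members and lists were chosen with earlier results of these data known. All 10 members are named; from each other list, the 3 called genes with the largest change at each time, or the 1 with the smallest p; for CCN1, CCN2 and THBS1, the 3 most like genes. Further genes named because few were called, and single probe sets, were chosen after their values were seen.

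Same-numbered arrays of different groups deviated together. The correlation of their deviations was 0.162 to 0.669 over 18 pairs, against -0.66 to 0.37 (median -0.21) over 36 pairs of different number, so the ranges overlapped. Deviations within a group sum to 0, so positive values for same numbers push the others below 0, and the contrast is partly built in. Whether the samples were paired by design is not settled by this check. The fit with the replicate number as a block was run as an alternative. The other alternatives were the filter, normalization, array weights, variance model, mean of all probe sets, arrays of 1 time alone, and arrays left out. Arrays carry no count depth, and their number limits the precision.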

Additional observations from a re-analysis of the deposited data

How the results depend on the processing

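The changes of CCN1, THBS1, AMOTL2, AXL, YAP1 and TEAD1 kept their direction in every alternative run, at each time and as the mean of both. Counts of called members moved more. Without a filter on low values, more probe sets enter both the adjustment and the variance model, and the part of each was not tested. The counts of members were then 1 at 24 h and 0 at 48 h, where 2.46% and 2.27% of all genes were called. With array weights they were 5 and 5 (55.8% and 51.3% of all genes), 3 for the difference between the Nnm effects (18.8%), 6 for time in Nnm cells (37.3%) and 1 for time in control cells (0.438%). Without both Nnm arrays numbered 2 they were 5 (49.9%), 4 (44.8%), 3 for time in Nnm cells (24.4%) and 1 for time in control cells (0.119%). With arrays of that time alone they were 0 and 0 (0.502% and 0.538%), with fewer samples. Leaving out 1 array gave 0 to 4 at 24 h, 0 to 3 at 48 h, 4 to 7 for the mean (25.8% to 51.7%) and 0 to 2 for time in Nnm cells (2 without Nnm 24 h replicate 2, where 18.2% of all genes were called). The cause of these moves was not tested. Some values changed sign. CCN2 over both times was 0.14 with array weights and 0.062 or 0.039 without Nnm 24 h replicate 1 or Nnm 48 h replicate 2, in a range from -0.42 to 0.062 over the fits that left out 1 array; at 48 h that range was -0.16 (without Nnm 48 h replicate 3) to 0.77. AJUBA at 48 h was 0.17 with array weights, and its probe set 1553764_a_at was 0.25 with array weights and 0.12 without both arrays numbered 2, and from -0.44 to 0.12 when 1 array was left out, the highest without Nnm 48 h replicate 2. Of the LATS2 probe sets, 223380_s_at at 48 h was 0.018 with array weights and -0.13 to 0.13 when 1 array was left out, and 223379_s_at was -0.20 to 0.43 at 24 h and -0.0089 to 0.25 at 48 h in those fits. MOB1B at 48 h, 0.049 in the fit of all 12 arrays, was -0.00926 with median centring, -0.12 with array weights, -0.094 without both arrays numbered 2 and -0.094 to 0.17 when 1 array was left out. TGFB2 at 48 h, 0.12 in that fit, was -0.025 as the mean of its probe sets and -0.098 to 0.28 when 1 array was left out.

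With the replicate number as a block, 3 members were called at 24 h, 3 at 48 h and 7 for the mean, against a background of 31.5%, 22.9% and 49%. The block added AXL at 48 h and AJUBA for the mean, and changed no other call of a member's leading probe set.

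With 3 arrays a group, the 95% intervals for the leading probe sets of CCN2, AJUBA and LATS2 held 0 at each time. So these data do not settle whether CCN2 and LATS2 changed. The intervals of the further AJUBA probe set 225807_at lay below 0 at each time, and it was called lower at 24 h. Since the AJUBA probe sets disagree, whether and by how much that gene changed is not settled either. GCRMA values near log2 2 to 4 hold no order, which limits ANKRD1 and the low probe sets of THBS1 and AXL.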
